A study of Mus musculus with 8 samples.

Results

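The antioxidant and glutathione genes are a set of 33 genes, chosen by symbol, whose products make and recycle glutathione, break down peroxides and superoxide, repair oxidised thiols and methionines, or control the transcription of such enzymes. All 33 were present among the 16119 genes of the count table, and all 33 were among the 15837 genes that passed the filter on low counts. Their RNA was measured in CDPs, the progenitors in BM that are restricted to the DC lineage, sorted as Lin-, c-kit(int), Sca1(lo), CD115+ and Flt3+ cells.

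The HFD group consisted of 4 samples from C57BL/6 mice fed a diet with 60 kcal% fat and labelled DIO, with 16 weeks of feeding in the labels. The CF group consisted of 4 samples from C57BL/6 mice fed a control chow with 10 kcal% fat, labelled DIO-Control and matched for age and diet. The mice carried no transgene or deletion in the labels, and the study's methods name males of the C57BL/6J background, bought at an age of 16 weeks. The labels do not say whether a replicate is 1 mouse or a pool, so p-values measure the spread between these samples. The comparison of the diets asks whether the transcripts of the antioxidant system differ in CDPs of obese mice, in which the study examined oxidative stress.

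Cells keep reactive oxygen species low with a pair of linked thiol systems. Glutathione is made by glutamate-cysteine ligase and glutathione synthetase, is spent by glutathione peroxidases and glutathione S-transferases, and is restored by glutathione reductase. Peroxiredoxins reduce peroxides with electrons from thioredoxin, which thioredoxin reductase recharges with NADPH. Many of these genes are transcribed under NRF2 (Nfe2l2), which KEAP1 holds in the cytoplasm for degradation and which competes with BACH1 at antioxidant response elements. In BM, the oxidative burst is a property of neutrophils, and developing DCs and progenitors depend on the same enzymes for redox balance.

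Total counts ranged from 28203651 to 48409689 per library, of which 23922 to 44935 fell on the 33 genes. Transcripts of the sorting markers were found in every library. Flt3 lay between 88.8 and 378 CPM (counts scaled to a common library size with TMM factors), and Csf1r, which encodes CD115, lay between 79.4 and 133 CPM. HFD replicate 1 stood apart. It had the lowest Flt3, and the summed level of 15 neutrophil genes, such as S100a8, Ltf and Ly6g, was 21029.679 CPM in it, against 987.296 to 3670.926 CPM in the other HFD libraries and 2012.391 to 6748.877 CPM in the CF libraries. All 15 neutrophil genes, all 8 granulocyte progenitor genes and all 13 measured erythroid genes were highest in this library. None of these genes was at 0 in any library. Of the other cell types, 6 of 11 monocyte and macrophage genes and 5 of 9 B cell genes were highest in it. So were 5 of 6 mast cell and basophil genes and 0 of 6 plasmacytoid DC genes. Over all genes tested, 26.5% were highest in this library. Because these are bulk samples, more cells of a type and more RNA per cell cannot be told apart. Lysis of red cells and the Lin- gate are meant to remove mature neutrophils and erythroid cells, and the sources used here do not say whether the sort of this library differed. The results below are therefore given with and without HFD replicate 1 where it bears on them.

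Sequence features of the members were read first. In 5 of the 33 genes the coding sequence holds an in-frame TGA codon that is read as selenocysteine, the residue that these enzymes use for catalysis. The stretches around these codons are shown because they set the selenoproteins of the set apart from its other members. They are printed 5′ to 3′ on the coding strand of GENCODE transcripts, release 21, on GRCm38, with the TGA in capitals. Gpx1 is at chr9:108339430-108339462, codon 47 of 201. Gpx4 is at chr10:80054716-80054748, codon 129 of 253. Msrb1 is at chr17:24740137-24740169, codon 95 of 116. Txnrd1 is at chr10:82896016-82896042, codon 498 of 499, and Txnrd2 at chr16:18477751-18477777, codon 526 of 527. All 5 lie on the plus strand, in coding exons.
Gpx1: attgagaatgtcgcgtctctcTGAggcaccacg
Gpx4: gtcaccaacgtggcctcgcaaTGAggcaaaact
Msrb1: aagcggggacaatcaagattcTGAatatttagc
Txnrd1: gacatcctccagtctggctgcTGAggt
Txnrd2: gagcctactgtgactggttgcTGAggc
In both glutathione peroxidases and in Msrb1 the codon is inside the reading frame, whereas in both thioredoxin reductases it is the last but 1.

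Promoters were searched for 2 motifs of the kind bound by NRF2 and BACH1, TGACNNNGC and TGAGNNNGC, on both strands, in RefSeq promoters on GRCm38.p6 that run from 250 bases before to 50 bases after the start of a gene. A promoter was given for 29 of the 33 genes, and Gsr, Gclc, Prdx6 and Msra had no entry. TGACNNNGC was present for 7 of the 29 genes (24.14%) and for 13.99% of the 27025 genes with a promoter. TGAGNNNGC was present for 4 of the 29 (13.79%) and for 19.85% of all. Matches are shown for 6 genes that recur in the results, on the strand of the gene with the match in capitals. They are descriptions of letters and not of binding. Gclm is at chr3:122245407-122245447, Mgst1 at chr6:138140455-138140495, Prdx1 at chr4:116685450-116685490, Txnrd1 at chr10:82859098-82859138 and Srxn1 at chr2:152105463-152105503, all on the plus strand. Gstp1 is at chr19:4037962-4038002 on the minus strand.
Gclm: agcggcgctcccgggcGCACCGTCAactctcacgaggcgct
Mgst1: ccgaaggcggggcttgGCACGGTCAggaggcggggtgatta
Prdx1: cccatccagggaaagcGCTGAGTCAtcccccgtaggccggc
Txnrd1: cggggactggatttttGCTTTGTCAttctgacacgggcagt
Srxn1: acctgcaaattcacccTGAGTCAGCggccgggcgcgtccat
Gstp1: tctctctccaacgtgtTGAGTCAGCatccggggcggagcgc
The first 4 matches are TGACNNNGC read on the opposite strand. Those of Srxn1 and Gstp1 are TGAGNNNGC on the strand of the gene, and both read TGAGTCAGC. The letters TGAGTCA within the matches of Prdx1, Srxn1 and Gstp1 are also those of an AP-1 motif.

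Levels were compared between genes as CPM per kilobase of annotated exon. Gpx1, which reduces hydrogen peroxide with glutathione, had the highest mean level over the 8 libraries, 83.2 ± 13.6 CPM per kb (SD, n = 8). Txn1, the cytosolic thioredoxin, came next with 46.6 ± 11.995 CPM per kb, and Gsr, glutathione reductase, followed with 30.9 ± 26.3 CPM per kb. The SD of Gsr was nearly as large as its mean, so its place below Txn1 and above Msrb1 (24.4 ± 17.8 CPM per kb) does not exceed the spread over libraries. At the other end, Txnrd2, the mitochondrial thioredoxin reductase, had 0.887 ± 0.467 CPM per kb, Gss, glutathione synthetase, had 0.571 CPM per kb, and Srxn1, the sulfiredoxin that repairs overoxidised peroxiredoxins, had 0.231 ± 0.159 CPM per kb. Txnrd1, the cytosolic reductase, was at 3.73 CPM per kb. Long untranslated exons lower the value per kilobase, which bears on genes such as Sod2 with 1.76 ± 0.232 CPM per kb.

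**Figure D1:**
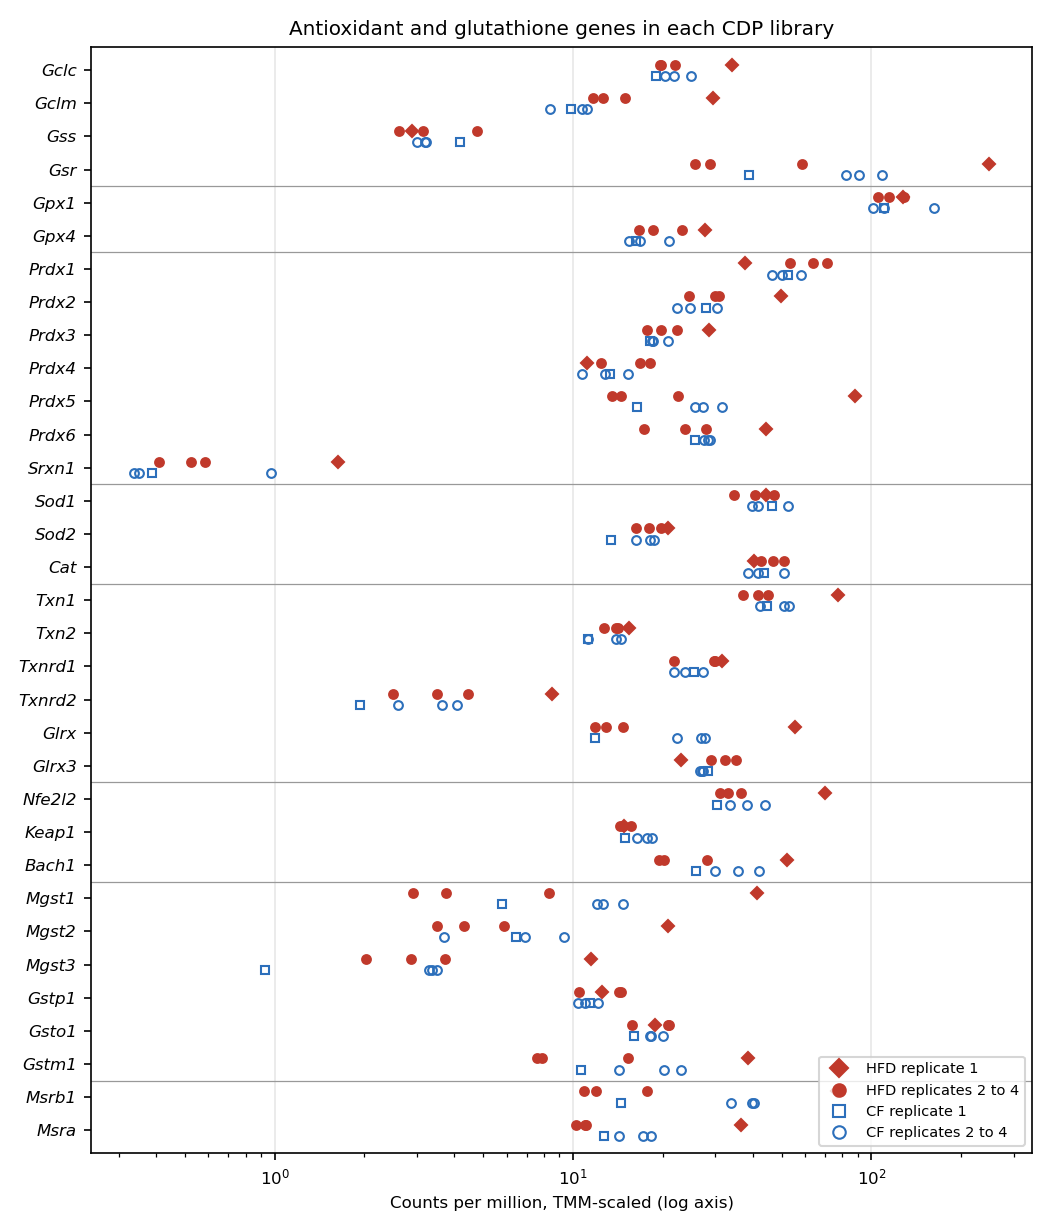
TMM-scaled CPM (log axis) of each of the 33 genes in the 8 CDP libraries, 1 point per library, with HFD replicate 1 drawn as a diamond. Gsr spans 25.7 to 248 CPM and Keap1 14.4 to 18.4 CPM, and HFD replicate 1 is the highest library for 23 of the 33 genes and for 26.5% of all genes.

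Between the diets, none of the 33 genes was called in edgeR's quasi-likelihood test at an adjusted p under 0.05, where 0.423% of all 15837 genes were called, all of them lower in HFD. DESeq2 and limma voom also called 0 of the 33, where DESeq2 called 3.58% of all genes and limma voom called 0 higher and 70 lower. At an unadjusted p under 0.05, edgeR found 1 of 33 higher in HFD (3.03%) and 0 lower, where 3.22% of all genes were higher, 5.34% were lower and 8.56% changed either way. Among the 11762 nuclear protein-coding genes, the class of the members, 4 were called, all lower, 437 were higher and 191 lower at an unadjusted p under 0.05, and 7612 had estimates above 0, with a median of 0.07. The point estimates of 27 of the 33 were above 0, where 59.7% of all genes were. Their median log2 fold change was 0.15 (interquartile range 0.05 to 0.31, full range -0.18 to 0.86), and the median over all genes was 0.05. Of the 33 fold changes, 12 were larger than their own standard error, as were 6205 of the 15837 over all genes. Without HFD replicate 1, 16 of the 33 were above 0, where 54.2% of all genes were, and the median was -0.01. The direction changed for 13 of 33 on leaving out this library, and for 18.1% of all genes.

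**Figure D2:**
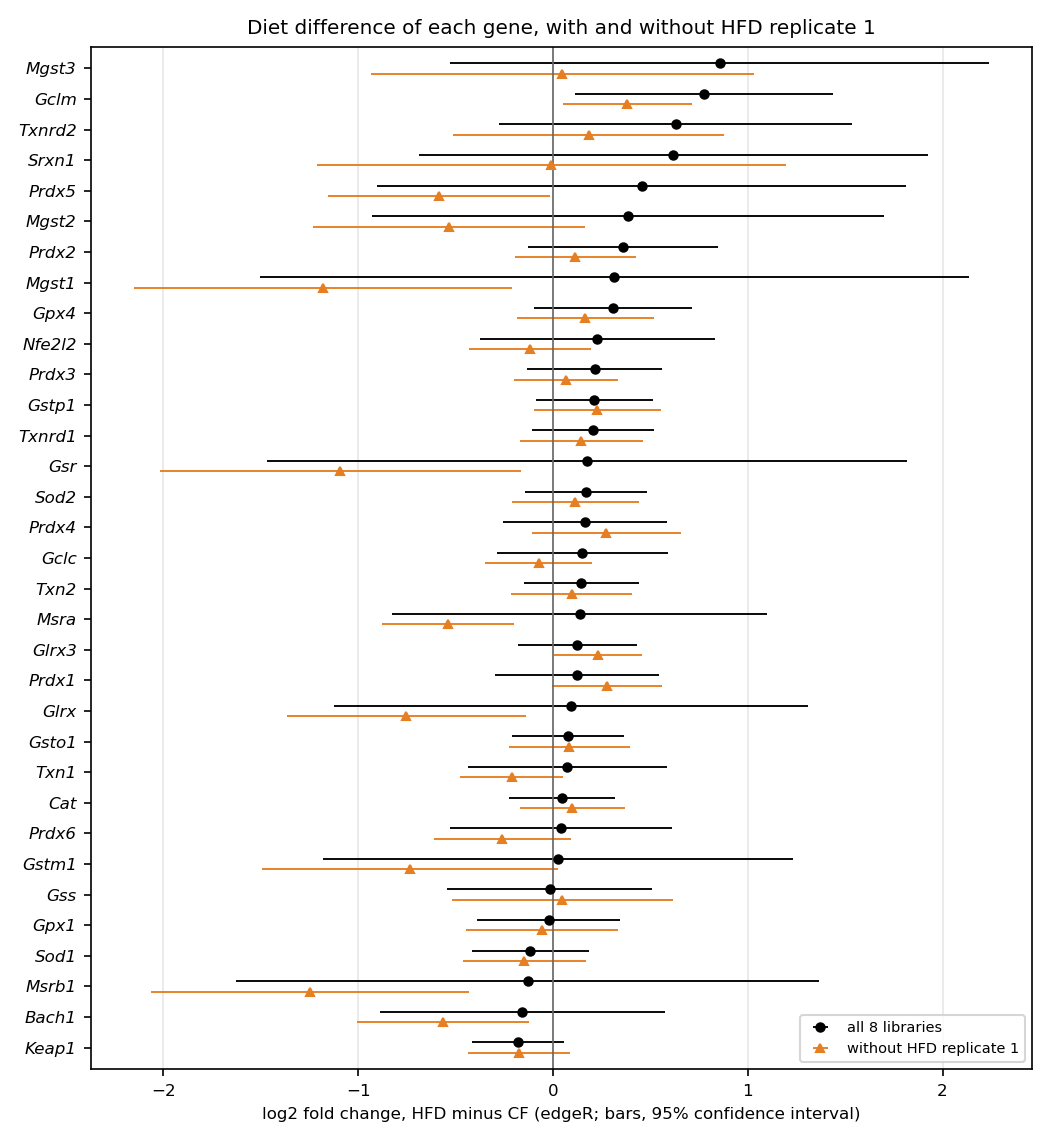
log2 fold change between HFD and CF of each of the 33 genes in edgeR with its confidence interval, from all 8 libraries and from the 7 without HFD replicate 1. Mgst3 has the largest estimate in all 8 libraries (0.86), and the estimates of Gsr (0.17 and -1.09), Mgst1 (0.31 and -1.18) and Msrb1 (-0.13 and -1.25) move furthest when the library is left out.

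Among the 4 genes of glutathione synthesis and recycling, Gclm had the lowest unadjusted p in edgeR. It was the 1 of the 33 genes that was higher in HFD at an unadjusted p under 0.05 (3.03%), where 3.22% of all genes were. It encodes the modifier subunit of glutamate-cysteine ligase, which raises the affinity of the catalytic subunit for glutamate. The gene lies at chr3:122245557-122270732 on the plus strand of GRCm38. HFD replicates 1 to 4 held 29.5, 14.9, 11.6 and 12.6 CPM, and CF replicates 1 to 4 held 9.84, 10.7, 8.38 and 11.1 CPM. Every HFD library was above every CF library, with a narrow gap between 11.6 and 11.1 CPM. Gclm was the only member whose diets did not overlap, where 2.58% of all genes lay wholly higher in HFD and 6.16% did not overlap in either direction. The mean was 17.2 ± 8.31 CPM in HFD and 10.0 ± 1.22 CPM in CF (SD, n = 4 each). Its log2 fold change of 0.78 (SE 0.29, 95% confidence interval 0.11 to 1.44) had an unadjusted p of 0.0265 in edgeR, and the adjusted p was 0.441. Without HFD replicate 1 the fold change was 0.38, with an edgeR adjusted p of 0.270. With the neutrophil level of each library as a covariate, it was 0.83 with an edgeR adjusted p of 0.0134, the only member called in that fit, where 0.682% of all genes were called higher and 3.57% lower. At an unadjusted p under 0.05, 7 members were higher and 0 lower in that fit (6.28% and 7.84% of all genes). They were Gclm, Gpx4, Prdx2, Prdx5, Txnrd2, Nfe2l2 and Mgst3. HFD replicate 1 was part of that fit, at a mean log2 CPM of 9.22 for the neutrophil genes, with the other libraries between 4.80 and 7.52. The slope of Gclm on this level was 0.26 with all 8 libraries and 0.09 without HFD replicate 1.

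For the other genes of this role the diets overlapped with all 8 libraries. Gclc, the catalytic subunit of the same enzyme, ranged from 19.6 to 34.2 CPM in HFD and from 19.0 to 24.8 CPM in CF (log2 fold change 0.15, SE 0.19, edgeR adjusted p = 0.920, and -0.07 without HFD replicate 1). Gss, which adds glycine in the last step of synthesis, was at 2.62 to 4.77 CPM in HFD and 2.99 to 4.19 CPM in CF (log2 fold change -0.02, SE 0.23). Gsr was the most variable of the 4. It was at 248, 58.5, 28.8 and 25.7 CPM in HFD replicates 1 to 4 and at 38.8, 90.8, 109 and 82.2 CPM in the CF replicates. Replicate 1 was more than any other library and replicates 3 and 4 were less, so the HFD libraries lay on both sides of the CF libraries. A log2 fold change of 0.17 was estimated with an SE of 0.72 and a confidence interval from -1.47 to 1.82. Without HFD replicate 1 the estimate was -1.09 (edgeR unadjusted p = 0.0265, adjusted p = 0.262). With the neutrophil level as covariate it was 0.10 (SE 0.10, 95% interval -0.14 to 0.33, edgeR adjusted p = 0.752).

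Of the glutathione peroxidases, Gpx4 reduces lipid hydroperoxides in membranes and protects cells from ferroptosis. It was measured at 27.6, 16.7, 18.5 and 23.2 CPM in HFD replicates 1 to 4 and at 16.2, 20.96, 16.8 and 15.4 CPM in CF replicates 1 to 4. The diets overlapped, with means of 21.5 ± 4.91 and 17.4 ± 2.47 CPM (SD, n = 4 each). This gave a log2 fold change of 0.31 (SE 0.18, 95% interval -0.10 to 0.71, edgeR adjusted p = 0.748), which became 0.17 without HFD replicate 1. Gpx1, far more abundant, was at 105 to 129 CPM in HFD and 101 to 162 CPM in CF, with the highest value in CF replicate 2. Its log2 fold change was -0.02, with an interval from -0.39 to 0.34.

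All 7 genes of the peroxiredoxin group had estimates above 0, between 0.04 for Prdx6 and 0.62 for Srxn1, and the sign of Prdx6 turned when protein-coding genes alone were scaled. Without HFD replicate 1, 3 of the 7 were below 0, Prdx5 at -0.58, Prdx6 at -0.26 and Srxn1 at -0.01. With all 8 libraries and the neutrophil level as covariate, Prdx5 was at 0.42 (edgeR unadjusted p = 0.00580, adjusted p = 0.0994). In that fit Prdx6 was at 0.11 and Srxn1 at 0.71, while Prdx1 was below 0 (-0.03). Prdx2, a cytosolic peroxiredoxin that is abundant in red cells, was at 49.7, 24.4, 30.0 and 31.0 CPM in the HFD replicates and at 27.98, 30.3, 24.7 and 22.3 CPM in the CF replicates. The highest value was that of replicate 1, and the other HFD values overlapped with CF. In edgeR the fold change was 0.36 on the log2 scale (SE 0.22, 95% interval -0.13 to 0.85, edgeR adjusted p = 0.767), with means of 33.8 ± 10.99 and 26.3 ± 3.55 CPM, and without HFD replicate 1 it was 0.12. The summed level of 13 erythroid genes was 989.782 CPM in HFD replicate 1 and 130.180 to 229.669 CPM in the other 7 libraries, and its part in the level of Prdx2 was not tested.

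Prdx1, the main cytosolic peroxiredoxin and a target of NRF2, showed the opposite arrangement. Its level was 37.6 CPM in HFD replicate 1, the lowest of the 8 libraries, and 53.5, 71.2 and 63.6 CPM in the other HFD replicates, against 46.5 to 58.2 CPM in CF. It gave a log2 fold change of 0.12 (SE 0.19) with all libraries and 0.28 without replicate 1, with an edgeR adjusted p of 0.932 and 0.356. Prdx5, an atypical peroxiredoxin found in mitochondria, peroxisomes and cytosol, was at 87.9 CPM in HFD replicate 1 and at 13.6 to 31.6 CPM in the other 7 libraries. Prdx3, of the mitochondrial matrix, lay between 17.7 and 28.5 CPM, and Prdx4, of the endoplasmic reticulum, between 10.7 and 18.1 CPM. Prdx6, which also acts on phospholipid peroxides, lay between 17.3 and 44.4 CPM. Srxn1 was near the lower end of what the depth resolves, with 11 to 51 counts per library, and its log2 fold change of 0.62 had an SE of 0.58.

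Superoxide is converted to hydrogen peroxide by Sod1 in the cytosol and Sod2 in mitochondria, and catalase in peroxisomes splits hydrogen peroxide into water and oxygen. Sod2 was at 20.8, 16.2, 19.8 and 18.0 CPM in the HFD replicates and at 13.4, 18.1, 18.7 and 16.3 CPM in the CF replicates. The ranges overlapped, and the means were 18.7 ± 2.01 and 16.6 ± 2.38 CPM (SD, n = 4 each). The log2 fold change was 0.17 (SE 0.14, 95% interval -0.14 to 0.48, edgeR adjusted p = 0.839). Cat was among the steadiest members, with 38.8 to 51.1 CPM in all 8 libraries and a log2 fold change of 0.05 (SE 0.12). Sod1 lay between 34.5 and 52.8 CPM, and its fold change of -0.12 (SE 0.13) turned to 0.09 when libraries were scaled by their size alone.

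For the 6 thioredoxin and glutaredoxin genes the estimates lay between 0.07 and 0.63 with all libraries. On leaving out HFD replicate 1 they lay between -0.75 (Glrx) and 0.23 (Glrx3), and Txn1 went from 0.07 to -0.21. Txnrd2 had the lowest p of them. It was counted at 8.54, 3.49, 4.43 and 2.50 CPM in HFD replicates 1 to 4 and at 1.94, 3.63, 4.09 and 2.60 CPM in CF replicates 1 to 4. HFD replicates 1 and 3 were above all CF libraries, and the other HFD replicates were within the CF range. The means were 4.74 ± 2.65 and 3.06 ± 0.976 CPM, from 75 to 266 counts per library. The log2 fold change of 0.63 (SE 0.40, 95% interval -0.28 to 1.53, edgeR adjusted p = 0.781) went down to 0.18 without HFD replicate 1. Txn1 was at 77.5 CPM in this replicate and at 37.0 to 53.0 CPM in the others.

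Txn2, the mitochondrial thioredoxin, lay between 11.2 and 15.5 CPM, and Txnrd1 between 21.7 and 31.6 CPM, and the diets overlapped for both. Glrx, which removes glutathione from protein thiols, was at 55.3 CPM in HFD replicate 1, at 11.9 to 14.7 CPM in the other HFD replicates, and at 11.8 CPM in CF replicate 1 and 22.4 to 27.6 CPM in the other CF replicates. Its log2 fold change was 0.09 with all libraries and -0.75 without HFD replicate 1, with edgeR adjusted p of 0.985 and 0.241. Glrx3, an iron-sulphur carrying glutaredoxin, was lowest in HFD replicate 1 at 23.0 CPM. It was at 28.9 to 35.2 CPM in the other HFD libraries and at 26.7 to 28.4 CPM in the CF libraries. The estimate of 0.12 (SE 0.13) became 0.23 without that replicate, with an edgeR adjusted p of 0.327.

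None of the 3 regulators passed the test. Keap1, the adaptor that delivers NRF2 to its ubiquitin ligase, was at 14.9, 14.8, 14.4 and 15.6 CPM in the HFD replicates and at 14.9, 18.4, 17.7 and 16.5 CPM in the CF replicates. CF replicate 1 fell inside the HFD range, and the other CF libraries were above it. With means of 14.9 ± 0.523 and 16.9 ± 1.53 CPM (SD, n = 4 each), the log2 fold change was -0.18 (SE 0.10, 95% interval -0.41 to 0.06, edgeR adjusted p = 0.752). Scaling by library size alone turned its sign (0.01). Nfe2l2, which encodes NRF2, was at 70.1 CPM in HFD replicate 1 and between 30.3 and 44.0 CPM elsewhere, with a log2 fold change of 0.23 (SE 0.26). The estimate was 0.32 with the neutrophil level as covariate (SE 0.11, edgeR unadjusted p = 0.0182, adjusted p = 0.208) and -0.12 without HFD replicate 1. Bach1, the haem-sensing repressor at NRF2 sites, was at 52.2 CPM in that replicate and at 19.4 to 28.2 CPM in the other HFD libraries, against 25.9 to 42.0 CPM in CF. Its log2 fold change was -0.16 with all libraries, and -0.57 without HFD replicate 1 (edgeR adjusted p = 0.955 and 0.220). NRF2 is controlled mainly through the stability of the protein, which RNA counts do not measure.

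Glutathione S-transferases conjugate glutathione to electrophiles, and the microsomal Mgst enzymes also reduce lipid peroxides or make leukotriene C4. Gstp1 had the lowest p of the 6. Its values were 12.5, 10.5, 14.5 and 14.3 CPM in the HFD replicates and 11.4, 12.1, 10.96 and 10.4 CPM in the CF replicates. The ranges overlapped, with means of 12.96 ± 1.85 and 11.2 ± 0.722 CPM and a log2 fold change of 0.21 (SE 0.13, 95% interval -0.09 to 0.51, edgeR adjusted p = 0.778). Gstp1 and Gstp2 are near-identical neighbours, so the share of reads given to each is uncertain. Gsto1, which reduces thiols and dehydroascorbate, lay between 15.8 and 20.9 CPM.

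The membrane transferases and Gstm1 were far more uneven. Mgst1 was at 41.2, 8.31, 3.75 and 2.91 CPM in HFD replicates 1 to 4 and at 5.79, 14.7, 12.6 and 12.03 CPM in CF replicates 1 to 4. The highest library held 14.2 times the lowest, and both were HFD libraries. The log2 fold change of 0.31 had an SE of 0.80, and it was -1.18 without replicate 1 (edgeR adjusted p = 0.966 and 0.246). Mgst3 had the largest fold change of the 33, 0.86 (SE 0.61, 95% interval -0.53 to 2.24, edgeR adjusted p = 0.811). It rested on 11.5 CPM in HFD replicate 1 and 0.930 CPM in CF replicate 1, while the other 6 libraries lay between 2.02 and 3.71 CPM. With the neutrophil level as covariate the estimate was 1.03 (SE 0.28, edgeR unadjusted p = 0.00413, adjusted p = 0.0795). Mgst2 was at 20.9 CPM in HFD replicate 1 and at 3.49 to 9.30 CPM elsewhere, and Gstm1 at 38.7 CPM in that replicate and at 7.596 to 23.0 CPM elsewhere. All 6 estimates were above 0 with TMM, with a median of 0.26, but that of Gstm1 (0.03) turned when protein-coding genes alone were scaled. When HFD replicate 1 was left out, 3 of the 6 were below 0, Mgst1 at -1.18, Gstm1 at -0.73 and Mgst2 at -0.53, and Mgst3 was at 0.05.

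Methionine sulfoxide reductases repair the S form (Msra) and the R form (Msrb1) of oxidised methionine. Msra was at 36.5, 11.01, 11.02 and 10.2 CPM in HFD replicates 1 to 4 and at 12.7, 14.3, 17.2 and 18.3 CPM in CF replicates 1 to 4. Replicate 1 was above all CF libraries, and the HFD libraries lay on both sides of the CF range. The means were 17.2 ± 12.9 and 15.6 ± 2.56 CPM (SD, n = 4 each), and the log2 fold change was 0.14 (SE 0.42, 95% interval -0.83 to 1.10, edgeR adjusted p = 0.973). Msrb1 was at 76.9, 17.7, 11.96 and 10.8 CPM in HFD and at 14.4, 40.3, 39.7 and 33.8 CPM in CF. HFD replicate 1 was again above all CF libraries, while the other HFD replicates overlapped with CF replicate 1 alone. That gave a log2 fold change of -0.13 (SE 0.66). Without HFD replicate 1 the fold changes were -0.54 for Msra and -1.25 for Msrb1, with unadjusted p of 0.00582 and 0.00762 and adjusted p of 0.136 and 0.151 in edgeR.

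In the 7 libraries without HFD replicate 1, 7 of the 33 genes were lower in HFD at an unadjusted p under 0.05 (Msra, Msrb1, Bach1, Glrx, Mgst1, Gsr and Prdx5), where 9.76% of all genes were. In the same fit 2 were higher, Gclm and Glrx3, where 4.79% of all genes were. None passed an adjusted p under 0.05 in edgeR, where 0.214% of all genes were called higher and 1.05% lower. With all 8 libraries and the neutrophil level as covariate, the 7 genes named as lower had log2 fold changes between -0.10 (Msrb1) and 0.42 (Prdx5). HFD replicates 2 to 4 had lower neutrophil sums than 3 of the 4 CF libraries, apart from CF replicate 1 with 2012.391 CPM. Neutrophil transcripts thus tended to be lower in HFD in the 7 libraries, with overlap. The summed level of 6 plasmacytoid DC genes did not overlap there, with 298.169 to 411.139 CPM in HFD and 184.159 to 231.621 CPM in CF, and its part in these differences was not tested. Leaving out CF replicate 1 as well made the neutrophil sums of the diets not overlap, and edgeR then called 2 of the 33 lower (2.21% of all genes) and 0 higher (0.24%). At an unadjusted p under 0.05, 8 were lower (10.6%) and 0 higher (4.54%). Diet and neutrophil transcripts cannot be told apart in these 6 libraries.

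The members were therefore also set against the neutrophil list itself. The level of the list was taken as the mean log2 CPM of its 15 genes, and a slope on it was fitted in edgeR with diet in the same model. The model is that of the covariate fit above, its slopes were examined after the values had been seen, and none of the 33 genes is on the list. With all 8 libraries, 15 of the 33 rose with the list at an adjusted p under 0.05 (45.5%), where 11.4% of all genes did. Prdx1 and Glrx3 fell with it, at slopes of -0.17 and -0.12, where 5.2% of all genes did. The steepest slopes were those of Mgst1 (0.85), Gsr (0.77), Msrb1 (0.68) and Prdx5 (0.61), in log2 per unit of log2.

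When HFD replicate 1 was left out, the count fell from 15 to 4 of the 33 (12.1%), these same 4 genes, where 1.17% of all genes were called as rising and 0.0378% as falling, with no member among the latter. Prdx1 and Glrx3 then had slopes of -0.09 and -0.10 (edgeR adjusted p = 0.725 and 0.596). The slopes of Mgst1, Gsr, Msrb1 and Prdx5 were then 0.81, 0.77, 0.67 and 0.47, with edgeR adjusted p of 0.00635, 0.00348, 0.0268 and 0.0289. Some genes no longer called kept slopes near those from all 8 libraries, with larger standard errors. These were Gstm1 (0.55, then 0.58), Mgst3 (0.58, then 0.72), Txnrd2 (0.35, then 0.36), Bach1 (0.33, then 0.31) and Glrx (0.54, then 0.46). Slopes fell further for Msra (0.40, then 0.15), Nfe2l2 (0.26, then 0.17), Txn1 (0.19, then 0.03) and Gclc (0.17, then 0.07). For Gsr the order of the 8 libraries was the same as that of the list, from HFD replicate 4 at the low end to HFD replicate 1 at the high end. For Mgst1 and Msrb1 it differed only in that CF replicates 2 and 3 changed places. Mgst2 was different. Its slope was 0.43 with all libraries and -0.12 without HFD replicate 1. The slope of Gclm went from 0.26 to 0.09 (edgeR adjusted p = 0.781) on leaving out the same library.

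**Figure D3:**
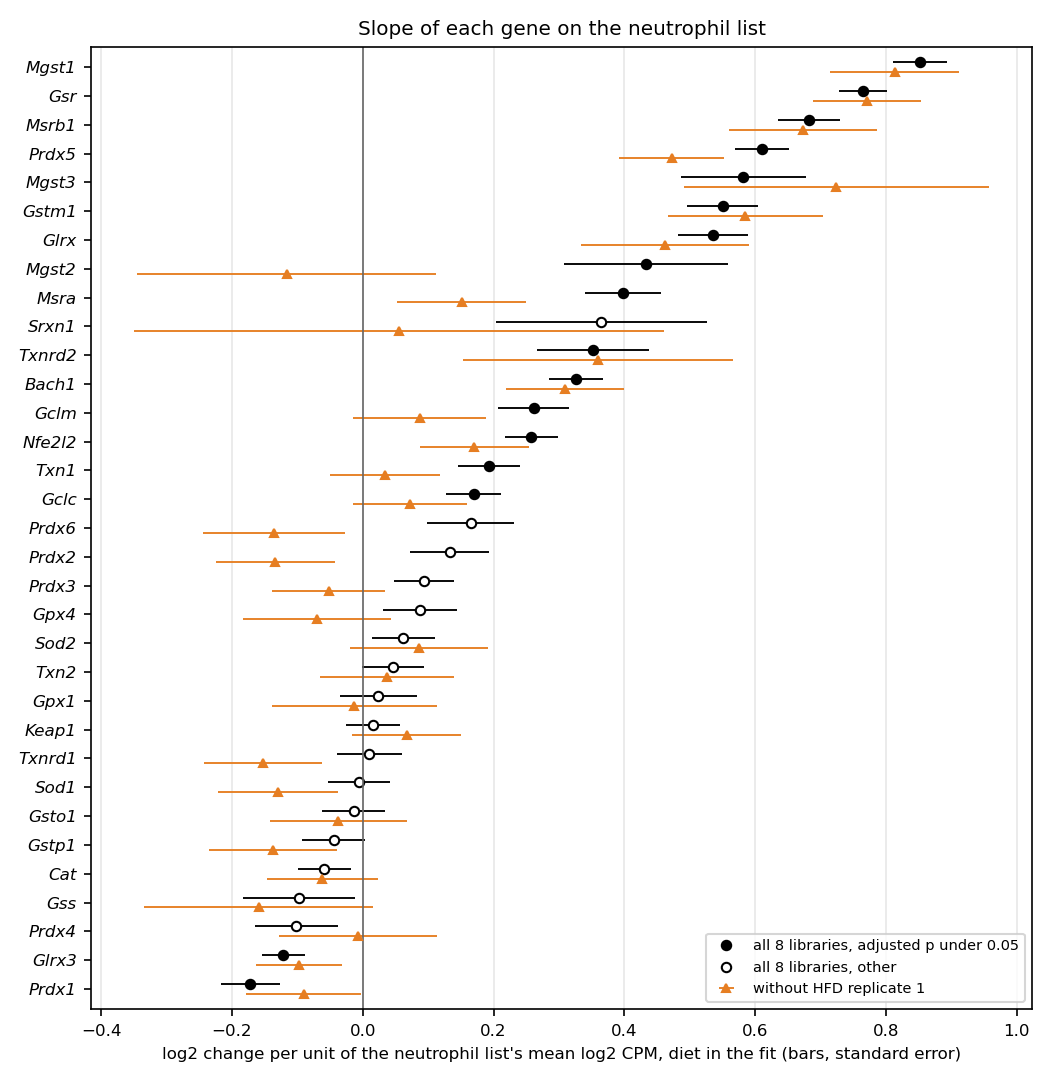
Slope of each of the 33 genes on the mean log2 CPM of the neutrophil list, with diet in the model, from all 8 libraries and from the 7 without HFD replicate 1. The slopes of Mgst1, Gsr and Msrb1 are nearly equal in both fits, while that of Mgst2 goes from 0.43 to -0.12.

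**Figure D4:**
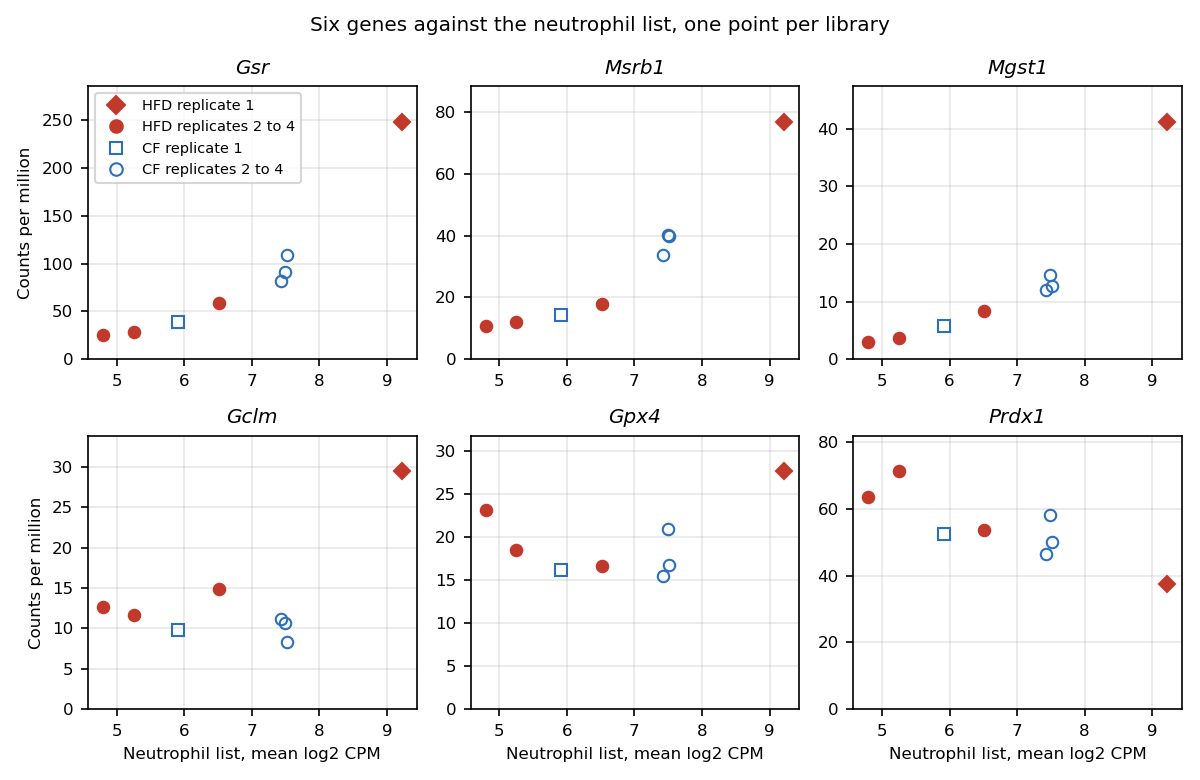
CPM of Gsr, Msrb1, Mgst1, Gclm, Gpx4 and Prdx1 in each library (linear axes from 0) against the mean log2 CPM of the neutrophil list, by diet. The libraries range from 4.80 (HFD replicate 4) to 9.22 (HFD replicate 1) on the list, with the CF libraries between 5.91 and 7.52.

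The estimates of the selenoproteins had both signs, and a shift of the group was not tested. Of the 5 genes whose TGA codons are printed above, 3 had estimates above 0 (Gpx4, Txnrd1 and Txnrd2) and 2 below (Gpx1 and Msrb1), with a median of 0.20. The spread over libraries was widest for Msrb1, with a 7.09-fold range, and narrow for Gpx1, with a 1.60-fold range. Of the 6 genes with printed promoter matches, Mgst1 varied 14.2-fold over the libraries and Prdx1 1.89-fold.

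Beyond the 33, 76 further genes of the same pathways were listed, of which 63 were in the table and tested. None was called in edgeR in either direction, 47 had estimates above 0 and 16 below, where 59.7% of all genes were above 0, and the median was 0.16. At an unadjusted p under 0.05, 2 were higher in HFD and 1 was lower, where 3.22% and 5.34% of all genes were. DESeq2 called 2 of the 63, Bach2 higher and Osgin1 lower, where it called 3.58% of all genes. In edgeR without HFD replicate 1, Ftl1 was called lower (log2 fold change -1.12, adjusted p = 0.0183), where 1.05% of all genes were. Bach2, a repressor of the same family as BACH1 that shapes B cell and progenitor fate, was at 33.7, 47.9, 42.7 and 38.2 CPM in HFD and at 17.4, 16.1, 31.9 and 19.6 CPM in CF. The diets did not overlap for Bach2, and its log2 fold change of 0.93 had an adjusted p of 0.141 in edgeR and 0.00892 in DESeq2. The summed level of 9 B cell genes was 454.407 to 1284.492 CPM in HFD and 304.230 to 532.762 CPM in CF, and its part in the level of Bach2 was not tested.

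Osgin1, an NRF2 target induced by oxidative stress, was at 2.05, 0.661, 1.05 and 0.291 CPM in HFD and at 1.32, 5.31, 5.92 and 6.97 CPM in CF. CF replicate 1 fell inside the HFD range, and the other CF libraries were above it. The log2 fold change of -2.27 had an adjusted p of 0.226 in edgeR and 0.0102 in DESeq2. With the neutrophil level as covariate it was -2.0009, with an edgeR adjusted p of 0.0439. The remaining genes with the lowest p were Selenof (0.27), Gstm5 (1.01), Gstcd (0.23), Selenow (0.37), Ggct (0.60) and Hagh (0.62), all with estimates above 0 and edgeR adjusted p between 0.581 and 0.687. Selenof and Selenow encode selenoproteins, Ggct degrades gamma-glutamyl peptides, and Hagh completes the glutathione-dependent removal of methylglyoxal. Enzymes that use or carry thiols and peroxides beyond the 33 had estimates above 0 in 17 of 18 cases (median 0.21). Other glutathione enzymes did in 12 of 16 (median 0.19), and NRF2 targets and partners in 18 of 29 (median 0.08). Over all genes 59.7% did, and so did 7612 of the 11762 nuclear protein-coding genes. None of the 63 was called in edgeR.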

How the data were processed

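RNA of sorted CDPs was measured in 8 libraries, 4 per diet, made by whole-transcriptome amplification. The authors deposited raw counts per gene, without normalization. Per the submitters' notes and the study's methods, reads were trimmed with cutadapt, checked with FastQC, aligned to GRCm38 with HISAT2 and counted with StringTie from uniquely mapped pairs on GENCODE genes. Versions and strandedness of the counting are not given in the sources used here. Unique mapping makes genes with close copies uncertain, and without strand, reads of Prdx5 cannot be told from those of Trmt112, which overlaps 19.1% of its exons on the other strand (Keap1 and Gm16754, 10.9%; Prdx2 and Junb, 5.67%; Gclm and Gm17494, 4.71%). No gene in the table had a highest count under 29.

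Identifiers were matched to GENCODE release 21 (16067 of 16119). Counts were filtered with filterByExpr, scaled by TMM and tested with edgeR 4.0.16 (robust quasi-likelihood, HFD against CF) in R 4.3.3, with Benjamini-Hochberg adjustment over 15837 genes and a threshold of 0.05. edgeR replaced the Ballgown test of the study because the values are counts. Intervals are at 95%. Alternatives were DESeq2 1.42.0, limma 3.58.1 (voom), other scalings and filters, a replicate block, the neutrophil list (mean log2 CPM of its 15 genes) as a covariate, and each library left out. The reading of the slope on the neutrophil list, its fit without HFD replicate 1, and the diet fit without HFD replicate 1 and CF replicate 1 were added after seeing the data. Scripts were tested on simulated data.

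The members and all gene lists were chosen with earlier results of these data known. All 33 genes are named. Values in every library and full statistics are given for the gene with the lowest p in each of 8 roles and for any with an unadjusted p under 0.05 or diets that do not overlap, and the 8 other pathway genes with the lowest p are named. Detail on Gsr, Gpx1, Prdx1, Prdx5, Glrx, Glrx3, Mgst1, Mgst3, Msrb1 and Bach1, and the naming of Hmox1, Slc7a11, Ftl1 and Pgd, was chosen after their values were seen.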

Additional observations from a re-analysis of the deposited data

Results flagged for a closer look

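Among the 66 groups of 4 libraries (33 genes in each diet), 14 held a library far from its 3 neighbours by Dixon's test, which flags about 1 in 20 groups by chance, and 10 of the 14 were HFD replicate 1. In HFD 30.3% of the 33 genes held such a library, beside 9.3% of all genes tested, and in CF 12.1%, beside 5.61% of all. In that library the values were Gsr 248.4 CPM (next 58.46), Prdx5 87.93 CPM (next 22.43), Msrb1 76.89 CPM (next 17.74), Nfe2l2 70.12 CPM (next 36.59) and Glrx 55.3 CPM (next 14.66). In the same library Mgst1 was at 41.24 CPM (next 8.306), Msra at 36.52 CPM (next 11.02), Gclc at 34.21 CPM (next 21.99), Mgst2 at 20.89 CPM (next 5.851) and Srxn1 at 1.637 CPM (next 0.5824). In CF, replicate 2 stood apart for Gpx1 at 161.7 CPM (next 110.5) and for Prdx3 at 20.9 CPM (next 18.51). CF replicate 3 stood apart for Srxn1 at 0.9762 CPM (next 0.3876), and CF replicate 1 was low for Mgst3 at 0.9302 CPM (next 3.301).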

How the results depend on the processing

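The direction of all 33 genes was the same under RLE size factors, DESeq2, no filter on low counts and without CF replicate 3, and that of the 32 left with at least 1 CPM in 4 libraries, a filter that removed Srxn1. The sources of the changes below were not tested.

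With library size alone the median log2 fold change went to 0.2477 over all genes and 0.3270 over the 33, and 5 of the 33 were higher at an unadjusted p under 0.05, as were 10 other pathway genes and 1571 of all genes, 10 of which were called higher. The signs of Gss (0.1997), Gpx1 (0.1837), Sod1 (0.0859), Bach1 (0.0191) and Keap1 (0.0131) turned. DESeq2 called 64 genes higher and 503 lower, among the other pathway genes 1 higher and 1 lower, with 1 higher at an unadjusted p, as with RLE and with protein-coding genes alone. With limma voom the median over all genes was 0.0284, and Gsr (-0.3938), Prdx6 (-0.0446), Glrx (-0.1796), Mgst1 (-0.5154), Gstm1 (-0.2787) and Msra (-0.1080) turned. With protein-coding genes alone 0 of all genes were called lower, the median was 0.0316, 287 were higher and 237 lower at an unadjusted p, and Prdx6 (-8e-04) and Gstm1 (-0.0140) turned. With the neutrophil level as covariate 1 of the 33 was called higher and 7 were higher at an unadjusted p, 6 other pathway genes were higher and 3 lower at an unadjusted p with 1 called lower, 108 of all genes were called higher and 565 lower, 994 were higher at an unadjusted p, the median was 0.0309, and Prdx1 (-0.0261) turned.

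The labels do not say whether replicate numbers pair the samples. Deviations of same-numbered libraries from the means of their diets correlated at -0.4386, -0.0779, -0.2327 and -0.1786. These values cannot decide it, because deviations of any source enter them. With the replicate block 0 genes were called (67 lower without it), 236 were higher at an unadjusted p, the median was 0.0281, and Gsr (-0.5809), Gpx1 (1e-04), Prdx5 (-0.0714), Prdx6 (-0.0453), Glrx (-0.2700), Mgst1 (-0.6590), Gstm1 (-0.3080) and Msra (-0.1133) turned.

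Leaving out each library in turn, or HFD and CF replicate 1 together, gave 0 to 2 of the 33 called lower, 0 to 5 higher and 0 to 8 lower at an unadjusted p, 15 to 30 with estimates above 0 and a median of -0.1208 to 0.2314. Other pathway genes were called lower in 0 to 5 cases, with 1 to 5 higher and 1 to 10 lower at an unadjusted p. Over all genes 0 to 38 were called higher and 0 to 350 lower, 279 to 760 were higher and 731 to 1670 lower at an unadjusted p, and the median was 0.0177 to 0.0662. Signs turned within these ranges for Gclc (-0.1290 to 0.2311), Gss (-0.2369 to 0.1648), Gsr (-1.3209 to 0.4669), Gpx1 (-0.1028 to 0.1508), Prdx1 (-0.0068 to 0.2826), Prdx5 (-0.7453 to 0.7091), Prdx6 (-0.2936 to 0.2145), Srxn1 (-0.1208 to 1.1229), Cat (-0.0554 to 0.1285), Txn1 (-0.2423 to 0.1957), Glrx (-0.9629 to 0.2964), Glrx3 (-0.0037 to 0.2499), Nfe2l2 (-0.1974 to 0.3516), Bach1 (-0.6698 to 0.0039), Mgst1 (-1.4007 to 0.6297), Mgst2 (-0.5448 to 0.6458), Mgst3 (-0.2447 to 1.1184), Gsto1 (-0.0098 to 0.1585), Gstm1 (-0.9058 to 0.2670), Msrb1 (-1.4910 to 0.1306) and Msra (-0.6257 to 0.2992). Gclm stayed above 0 throughout (0.3731 to 0.9214). Srxn1, with 11 to 51 counts per library, is the gene that depth limits most.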

Other observations

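With both HFD replicate 1 and CF replicate 1 left out, a choice made after the data were seen, edgeR called 2 of the 33 genes lower in HFD, Msrb1 (log2 fold change -1.49, adjusted p = 0.0105) and Glrx (-0.96, adjusted p = 0.0144), where 2.21% of all genes were called lower. In the same fit 5 of the other pathway genes were called lower in edgeR: Osgin1 (-3.19, adjusted p = 0.0104), the haem oxygenase gene Hmox1 (-1.61, adjusted p = 0.0424), the cystine importer gene Slc7a11 (-1.51, adjusted p = 0.0179), the ferritin light chain gene Ftl1 (-1.23, adjusted p = 0.00310) and Pgd of the pentose phosphate pathway (-0.91, adjusted p = 0.0278). With all 8 libraries, the fold changes of Hmox1, Slc7a11, Ftl1 and Pgd were -0.07, -0.17, -0.57 and 0.17, with edgeR adjusted p between 0.784 and 0.993. Ftl1 was already called lower without HFD replicate 1 alone (-1.12, edgeR adjusted p = 0.0183), where 1.05% of all genes were. Osgin1 was also called lower with all 8 libraries and the neutrophil level as covariate (-2.0009, edgeR adjusted p = 0.0439). The neutrophil sums of the 6 libraries did not overlap between the diets, 987.296 to 3670.926 CPM in HFD and 6131.547 to 6748.877 CPM in CF, so diet and neutrophil transcripts cannot be told apart in this subset.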
